A study of Homo sapiens with 15 samples.

Results

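In MDA-MB-231 cells, an established human triple-negative breast cancer line, YAP and TAZ were depleted singly or together, and the RNA of the cells was sequenced. The question examined here was whether the co-knockdown changed each gene by the sum of what the single knockdowns did. The groups were siControl (cells given a non-targeting siRNA), siYAP (a pool of siRNAs against YAP1), siTAZ (a pool directed at WWTR1, which codes for TAZ) and siYAP+TAZ (both pools), with 3 libraries each. These 12 of the 15 libraries of the series enter the contrast, and the other 3 come from untransfected cells (Control). All groups share the cell line, 48 h of knockdown, for the transfected cells, and 5 to 6 h on gelatin before RNA was extracted. Each siRNA was used at a final concentration of 30 nM, so that siYAP+TAZ may have received 60 nM in total. The sources used here do not say whether the single knockdowns were brought to the same total with control siRNA, and if they were not, a larger siRNA dose and the joint depletion cannot be told apart. Libraries are numbered 17, 22 and 27 in siControl, 18, 23 and 28 in siYAP, 19, 24 and 29 in siTAZ, and 20, 25 and 30 in siYAP+TAZ. A supplementary legend of the paper names 3 independent sets of experiments for the RNA sequencing, without saying which libraries form a set. Below, values for a run are those of libraries with consecutive numbers (17 to 20, 22 to 25 and 27 to 30, called runs 1, 2 and 3), given as description and not as known sets.

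YAP and TAZ are paralogous transcriptional co-activators at the end of the Hippo pathway. When the kinases LATS1 and LATS2 do not phosphorylate them, they enter the nucleus and act mainly through the TEAD family of DNA-binding proteins, with CCN1, CCN2 and ANKRD1 among their best known targets. Both proteins bind the same TEADs, and so each can stand in for the other in part. They are known in breast cancer cells for driving growth, including genes of DNA replication that are also targets of E2F factors, and for shaping adhesion and the matrix.

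The siRNA sequences are shown because the remaining RNA of each target, after each pool alone and both combined, is compared below. Sense strands are given 5′ to 3′ as listed for the study, in lower case, with no part marked in capitals.
siYAP 1: gcaccuaucacucucgaga
siYAP 2: gaacauagaaggagaggag
siYAP 3: ccaccaagcuagauaaaga
siYAP 4: ggucagagauacuucuuaa
siTAZ 1: aagccuagcucguggcgga
siTAZ 2: aggaacaaacguugacuua
siTAZ 3: ggacaaacacccaugaaca
siTAZ 4: gacaugagauccaucacua
siControl: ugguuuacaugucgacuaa
Each is 19 bases long. On GRCh38 with GENCODE release 44, the 4 YAP1 sites lie on the plus strand of chromosome 11, in the coding sequence of exon 8 (chr11:102227471-102227489), exon 9 (chr11:102229814-102229832 and chr11:102229900-102229918) and exon 2 (chr11:102114375-102114393) of the 9 exons of the canonical transcript. The 4 WWTR1 sites lie on the minus strand of chromosome 3, in the coding sequence of exon 2 (chr3:149657174-149657192), exon 7 (chr3:149520895-149520913 and chr3:149520960-149520978) and exon 5 (chr3:149527864-149527882) of 7 exons. No annotated transcript of WWTR1 matched a YAP1 siRNA along its whole length, and none of YAP1 matched a WWTR1 siRNA. Sequences 1 and 4 of the YAP1 pool also matched the pseudogene YAP1P1, and the non-targeting sequence matched no transcript.

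Total counts per library lay between 18696700 and 30107300 reads (to the nearest 100) over 18858 genes, and TMM factors between 0.943 and 1.03 (edgeR's trimmed mean scaling). The mesenchymal markers VIM (1038 to 1435 CPM, counts scaled by library total) and CD44 (812 to 1113 CPM) were high in all 15 libraries. So was the luminal epithelial keratin gene KRT8 (916 to 1212 CPM), with KRT18 at 207 to 289 CPM. Unlike KRT8, the luminal epithelial markers EPCAM (10.3 to 17.2 CPM) and GATA3 (17.9 to 28.7 CPM) were low, and the hormone receptor gene PGR was at 0 to 0.352 CPM. The share of counts on mitochondrial genes ran from 1.78% to 5.03% and overlapped between the groups. The sources do not tie libraries to cultures beyond naming the sets, so p-values measure the spread between these libraries.

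The targets of both pools were compared first. In normalized counts (counts scaled to a common library size), YAP1 was at 4431, 4333 and 4202 in siControl, 1013, 2764 and 761 in siYAP, 4996, 4390.1 and 4393 in siTAZ and 2240.2, 2202 and 1796 in siYAP+TAZ. As a share of the siControl mean, siYAP libraries 18, 23 and 28 kept 23.4%, 64.0% and 17.6% of YAP1, while the siYAP+TAZ libraries kept 51.8%, 51.0% and 41.5%. Library 23 thus held more YAP1 RNA than any siYAP+TAZ library, and libraries 18 and 28 held less. WWTR1 was at 1995, 1850.2 and 1579 in siControl, 1956, 1423 and 2001 in siYAP, 828, 254 and 521 in siTAZ and 1133, 1123 and 1284 in siYAP+TAZ. The siTAZ libraries kept 45.8%, 14.1% and 28.8% of the siControl mean, and the siYAP+TAZ libraries kept 62.7%, 62.1% and 71.0%, so that every co-knockdown library held more WWTR1 RNA than every siTAZ library. The departure, defined as the log2 change in siYAP+TAZ minus the log2 changes in siYAP and siTAZ (each against siControl), was 1.14 (SE 0.43, unadjusted p = 0.023) for WWTR1 and 0.37 (SE 0.51, unadjusted p = 0.49) for YAP1, and neither passed after adjustment over all genes (adjusted p = 0.76 and 0.97, edgeR). Without library siYAP 23, the departure of YAP1 was 1.13 with an adjusted p of 0.024, but it was 0.14 without siYAP 18 (adjusted p = 0.98) and 0.05 without siYAP 28 (adjusted p = 0.999). Without siTAZ 24 that of WWTR1 was 0.81 with an adjusted p of 0.90. WWTR1 was therefore less depleted in the co-knockdown than in its own single knockdown in every library, and YAP1 in all but siYAP 23. The part of these differences in the departures of other genes was not tested. These are RNA levels in these libraries, and the paper reports that both pools lowered their targets efficiently in this line, in RNA and in protein. In GENCODE release 44, 10.1% of the exon bases of YAP1 and 9.05% of those of WWTR1 overlap genes on the other strand.

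Against siControl, 18 genes passed both thresholds (adjusted p of at most 0.05 and a log2 change of at least 1 in size) in siYAP (0.0955% of the genes tested), 40 in siTAZ (0.212%) and 652 in siYAP+TAZ (3.46%). These 3 comparisons share the siControl libraries. The departure itself passed both thresholds for 1 gene, DYRK1B (0.0053%), and adjusted p alone for 2, DYRK1B and MXD4 (0.0106%). At an unadjusted p under 0.05 there were 587 genes with a positive departure (3.11%) and 517 with a negative one (2.74%). Together these are 5.85% of the genes, against 5% that such a limit gives where no gene departs. The single genes described below, other than DYRK1B and MXD4, were named by small p or as list members and have not passed the adjusted test. With the run as a term in the fit, 27 genes passed both thresholds (0.143%) and 122 the adjusted p (0.647%), DYRK1B and MXD4 among the 122.

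**Figure D1:**
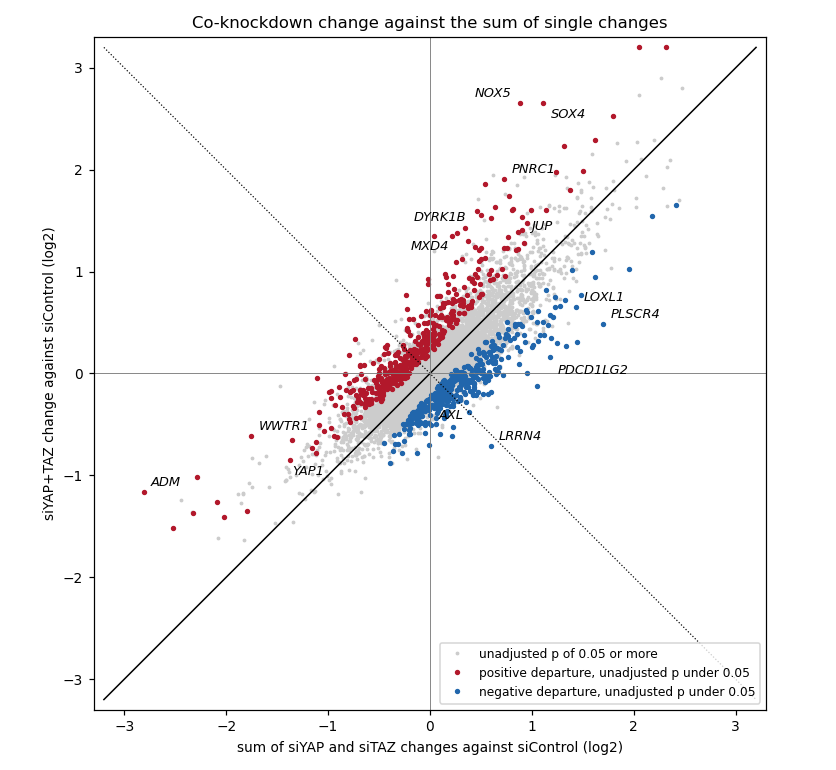
Each point is a gene whose normalized counts averaged 50 or more in the 12 libraries, with the sum of its siYAP and siTAZ log2 changes on the x axis and its siYAP+TAZ log2 change on the y axis, and values beyond the axes are drawn at the edge. On the solid line the co-knockdown equals the sum, and points above or below both diagonals, such as DYRK1B (0.50, 1.55) and AXL (0.01, -0.51), are larger in size than the sum, whereas ADM (-2.81, -1.17) and LOXL1 (1.43, 0.65) are smaller.

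DYRK1B, at chr19:39825350-39834201 on the minus strand, encodes a kinase of the DYRK family that is known for holding cells in quiescence. In normalized counts it stood at 268, 299 and 238 in siControl, 315, 328 and 327 in siYAP, 332, 332 and 281 in siTAZ and 787, 811 and 767 in siYAP+TAZ. Every siYAP+TAZ library was above the other 9. The siYAP libraries lay above siControl by a narrow margin, and those of siTAZ overlapped it. Multiplying the fold changes of the single knockdowns gave an expected 379 in siYAP+TAZ, and the measured mean was 788 ± 22.0 (SD, n = 3). The log2 changes were 0.27 in siYAP, 0.23 in siTAZ and 1.55 in siYAP+TAZ, and the departure was 1.05 (SE 0.16, adjusted p = 0.041) by edgeR's quasi-likelihood test. Within runs 1, 2 and 3 the departure was 1.01, 1.15 and 0.99. Leaving out any 1 of the 12 libraries gave a departure of 0.97 to 1.13, and the adjusted p was 0.073 to 0.25 without any one of them except siTAZ 19 (0.038) and siControl 27 (0.017). Among the 9 DYRK and HIPK kinases (median 0.11), HIPK1 had a positive departure of 0.35 (SE 0.13, unadjusted p = 0.017) and DYRK2 a negative one of -0.45 (SE 0.15, unadjusted p = 0.0071). Of the list, 1 gene was positive without siControl 17 or siYAP+TAZ 25, 2 were negative without siControl 17, and 0 were negative with Control as the reference. DYRK1A, the closest paralogue of DYRK1B, was at 0.13.

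MXD4, at chr4:2247432-2262109 on the minus strand, encodes a MAX-binding repressor that opposes MYC. It stood at 946, 994 and 711 in siControl, 1138, 1092 and 1120.4 in siYAP, 986, 847 and 893 in siTAZ and 2164, 2298 and 2078 in siYAP+TAZ. Again all siYAP+TAZ libraries were above the other 9, by more than the spread within any group. The expected level was 1149 and the measured mean 2179.8 ± 111 (SD, n = 3). The log2 changes were 0.34 in siYAP, 0.04 in siTAZ and 1.30 in siYAP+TAZ, and the departure was 0.92 (SE 0.14, adjusted p = 0.041), below the threshold of 1. Its departures within the runs were 0.87, 1.30 and 0.56, so it varied more than that of DYRK1B. Leaving out 1 library gave 0.83 to 1.06, with an adjusted p of 0.073 to 0.25 except without siTAZ 19 (0.026) and siControl 27 (0.00086). MXI1, another MAX partner that opposes MYC, had a departure of 0.66 (SE 0.18, unadjusted p = 0.0015).

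**Figure D2:**
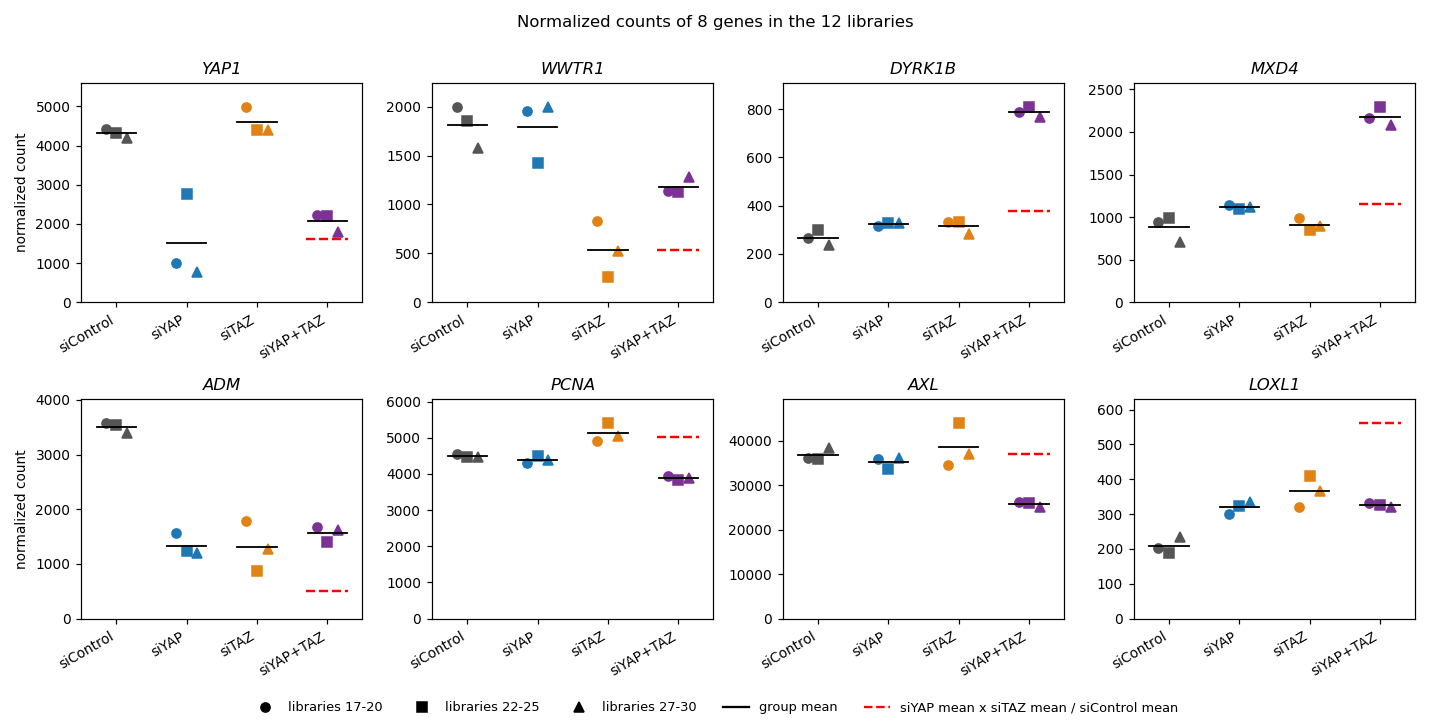
Normalized counts (y axis, linear from 0) of 8 genes in the siControl, siYAP, siTAZ and siYAP+TAZ libraries, with a symbol for each run of library numbers, a black line at each group mean and a red dashed line at the level that multiplying the single fold changes gives. The siYAP+TAZ points of DYRK1B (767 to 811) and MXD4 (2078 to 2298) sit above their dashed lines at 379 and 1149, and those of PCNA, AXL and LOXL1 below theirs.

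In the following, a gene is called more than additive where its siYAP+TAZ change was larger in size than the sum of the single changes, and less than additive where it was smaller. These classes compare sizes only, so the sum and the siYAP+TAZ change can differ in sign. Examples are PCNA (sum 0.16, siYAP+TAZ -0.21), classed as more than additive, and GDF15 (sum -0.73, siYAP+TAZ 0.34), classed as less than additive. Among the genes at an unadjusted p under 0.05, 434 of 1104 (39.3%) were more than additive, against 8298 of all 18858 genes tested. Error in the shared libraries enters the sum and the departure with opposite signs and by itself makes genes appear less than additive, so these shares are a description. The 1104 genes divide into 257 more than additive and higher in siYAP+TAZ, 177 more than additive and lower, 330 less than additive with a sum below 0, and 340 less than additive with a sum above 0. In the first set the median changes were 0.08 in siYAP, 0.04 in siTAZ and 0.66 in siYAP+TAZ, so that the single knockdowns were near siControl at the median. In the second they were -0.04, 0.04 and -0.36. In the third, by contrast, the single knockdowns had medians of -0.26 and -0.35 and the co-knockdown -0.02, and in the fourth 0.27, 0.41 and 0.03. In each of the 4 sets, 93.8% to 97.3% of the genes had a departure of one sign in all 3 runs, compared with 32.6% of all genes, but these sets were chosen on the same libraries.

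The more than additive genes that were higher in siYAP+TAZ with the smallest p had varied known roles. JUP, which encodes the junction protein plakoglobin, was at 983, 983 and 860.4 in siControl, 1155, 1229 and 1351 in siYAP, 1279, 1400.5 and 1334 in siTAZ and 2853, 2795 and 2571 in siYAP+TAZ, with 1768 expected. Its departure was 0.63 (SE 0.11, unadjusted p = 1.7e-05), all 3 co-knockdown libraries lay above all others, and the single knockdowns also lay above siControl. PNRC1, a nuclear receptor coactivator that represses ribosome production, was at 251, 233 and 153 in siControl, 251, 296 and 269 in siYAP, 298, 295 and 238 in siTAZ and 828, 783 and 790.1 in siYAP+TAZ. The departure was 1.18 (SE 0.22, unadjusted p = 4.2e-05), and 1.47, 1.06 and 0.92 within runs 1 to 3. TP53INP1, a p53-inducible gene with a part in autophagy, was at 64.4 to 70.3 in siControl, 62.1 to 65.7 in siYAP, 80.1 to 87.9 in siTAZ and 155 to 201 in siYAP+TAZ, a departure of 1.11 (SE 0.21, unadjusted p = 4.7e-05). HDAC5, a class IIa histone deacetylase, was at 771 to 951 in siControl, 906 to 982 in siYAP, 638 to 839.6 in siTAZ and 1190.3 to 1348 in siYAP+TAZ, and its departure of 0.69 (SE 0.14, unadjusted p = 0.00013) combined a siTAZ change of -0.28 with a co-knockdown change of 0.53. In GENCODE release 44, 24.0% of the exon bases of HDAC5 overlap G6PC3 on the other strand, and since the strand setting of the counting is not given in the sources used here, reads from the overlap cannot be told apart. FAM214B (now named ATOSB) had a departure of 0.57 (SE 0.12, unadjusted p = 0.00011).

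SOX4, NOX5 and HID1 were among the genes of smallest p with the run as a term, and their departures were larger in size but more variable. SOX4, a transcription factor of development and invasion, was at 270.5, 264 and 157 in siControl, 360.1, 362 and 219.8 in siYAP, 459.8, 335 and 296 in siTAZ and 1419, 1550.2 and 1411 in siYAP+TAZ. All 3 co-knockdown libraries lay far above the other 9, the departure was 1.55 (SE 0.35, unadjusted p = 0.00079), and the run term lowered its adjusted p from 0.39 to 0.0016. NOX5, a calcium-activated NADPH oxidase, was at 74.0, 83.2 and 47.2 in siControl, 106, 124 and 59.6 in siYAP, 125, 77.3 and 60.4 in siTAZ and 559, 509 and 232 in siYAP+TAZ, where the lowest co-knockdown library was still above the other 9. Its departure was 1.76 (SE 0.53, unadjusted p = 0.0059), and 1.63, 2.12 and 1.58 within the runs, but most of its exon bases are shared with a second NOX5 entry and SPESP1 on the same strand, so its counts are uncertain. HID1, a protein of the Golgi, had a departure of 1.31 (SE 0.42, unadjusted p = 0.0077). BMF and ITGA10 were named as list members. BMF, a BH3-only member of the BCL2 family that promotes apoptosis, was at 7.65, 14.8 and 7.51 in siControl, 11.5, 19.9 and 16.4 in siYAP, 25.8, 24.6 and 29.6 in siTAZ and 140.3, 157 and 424 in siYAP+TAZ. It had the largest departure among the named genes, 2.53 (SE 0.71, unadjusted p = 0.0028), in counts that were low outside siYAP+TAZ and 424 in library 30 alone. ITGA10, an integrin chain that binds collagen, was at 32.2 to 62.1 in siControl, 77.1 to 88.3 in siYAP, 30.5 to 53.4 in siTAZ and 172 to 197 in siYAP+TAZ with a departure of 1.32 (SE 0.35, unadjusted p = 0.0015).

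The more than additive genes that were lower in siYAP+TAZ included AXL, CD274, DTL and PCNA. AXL, a receptor tyrosine kinase and a known YAP target, was at 36211, 35803 and 38270.1 in siControl, 35887, 33548 and 36192 in siYAP, 34604, 43998 and 37028 in siTAZ and 26315, 26073 and 25087 in siYAP+TAZ. The siYAP+TAZ libraries lay below the other 9. The log2 differences from siControl were -0.06 in siYAP, 0.07 in siTAZ and -0.51 in siYAP+TAZ, and the departure was -0.52 (SE 0.11, unadjusted p = 0.00021). CD274, which encodes the immune checkpoint ligand PD-L1, was at 1266, 1173 and 1247 in siControl, 1199, 1152 and 1257 in siYAP, 1156, 1198 and 1179 in siTAZ and 864, 900.2 and 867 in siYAP+TAZ. Its co-knockdown libraries lay below all other 9, the departure was -0.39 (SE 0.09, unadjusted p = 0.00049), and it was -0.34, -0.39 and -0.45 within the runs. DTL, the substrate receptor of the ubiquitin ligase that clears CDT1 in S phase, was at 1883 to 1985 in siControl, 1814 to 2069.5 in siYAP, 1868 to 2158 in siTAZ and 1439 to 1519 in siYAP+TAZ, a departure of -0.45 (SE 0.10, unadjusted p = 0.00034). PCNA, the sliding clamp of the replication fork, was at 4552, 4471 and 4459.6 in siControl, 4309, 4505 and 4380.0 in siYAP, 4909, 5414 and 5059 in siTAZ and 3931, 3827 and 3889.9 in siYAP+TAZ. The siTAZ libraries were the highest of the 4 groups and the siYAP+TAZ libraries the lowest, with no overlap, and the departure was -0.37 (SE 0.08, unadjusted p = 0.00035). MSH6, a mismatch repair protein, had a departure of -0.38 (SE 0.09, unadjusted p = 0.00069), with 24.2% of its exon bases overlapped by genes on the other strand, and ZNF675, a zinc finger gene, one of -0.76 (SE 0.18, unadjusted p = 0.00057). LRRN4, a leucine-rich repeat protein, was at 60.1 to 121 in siControl, 42.9 to 76.3 in siYAP, 127 to 205 in siTAZ and 40.4 to 59.6 in siYAP+TAZ, so that siTAZ and siYAP+TAZ lay on opposite sides of siControl, and its departure was -1.31 (SE 0.38, unadjusted p = 0.0028).

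Less than additive genes with a sum below 0 included several that stood below siControl in both single knockdowns and no lower, or barely lower, in the joint one. ADM encodes adrenomedullin, a vasoactive peptide induced by hypoxia. It stood at 3581, 3549.8 and 3393 in siControl, 1569.8, 1233 and 1201 in siYAP, 1781, 867 and 1279 in siTAZ and 1669, 1401 and 1619.6 in siYAP+TAZ. All 9 knockdown libraries lay below the 3 of siControl, the siYAP+TAZ libraries overlapped both single groups, and the sum gave an expected 498. Its departure of 1.64 (SE 0.29, unadjusted p = 9.4e-05) was 1.096, 2.21 and 1.84 within the runs. NUAK1, an AMPK-related kinase, was at 1381 to 1633 in siControl, 884 to 1198 in siYAP, 1125 to 1339.9 in siTAZ and 1342 to 1499 in siYAP+TAZ, with a departure of 0.76 (SE 0.14, unadjusted p = 4.8e-05), and its relative NUAK2, a known YAP target, had one of 0.70 (SE 0.21, unadjusted p = 0.0033). PPME1, which demethylates the phosphatase PP2A, was at 4719.6, 4546 and 5476 in siControl, 3459, 3336 and 3630.3 in siYAP, 3605, 2821 and 3378 in siTAZ and 3854, 3593 and 3883 in siYAP+TAZ. The 3 knockdown groups overlapped one another below siControl, and the departure was 0.71 (SE 0.14, unadjusted p = 6.7e-05). S1PR1, a receptor for sphingosine phosphate, was at 130.4 to 152 in siControl, 43.1 to 55.2 in siYAP, 48.8 to 86.1 in siTAZ and 47.7 to 49.9 in siYAP+TAZ. It differed from siControl by -1.50 in siYAP, -1.02 in siTAZ and -1.52 in siYAP+TAZ on the log2 scale, a departure of 1.002 (SE 0.29, unadjusted p = 0.0025). GDF15, a stress cytokine and p53 target, differed from siControl by -0.39 in siYAP, -0.35 in siTAZ and 0.34 in siYAP+TAZ on the log2 scale, with a departure of 1.08 (SE 0.46, unadjusted p = 0.036). BIRC3, an inhibitor of apoptosis induced by NF-kB, had a departure of 0.77 (SE 0.35, unadjusted p = 0.049).

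Among the named less than additive genes with a sum above 0, LOXL1 had the smallest p. LOXL1, an enzyme that crosslinks elastin, was at 202, 189.6 and 233 in siControl, 299, 324 and 336 in siYAP, 320.3, 410.2 and 366 in siTAZ and 333, 327 and 320.3 in siYAP+TAZ. All 9 knockdown libraries lay above the 3 of siControl, the co-knockdown lay within the range of the single knockdowns, and the departure was -0.78 (SE 0.15, unadjusted p = 7.8e-05). In LOXL1, 9.21% of the exon bases overlap LOXL1-AS1 on the other strand. GALNT3, which starts the O-glycosylation of proteins, had a departure of -0.74 (SE 0.16, unadjusted p = 0.00025), and -0.66, -0.79 and -0.74 within the runs. PDCD1LG2, which encodes PD-L2, was at 88.5, 74.0 and 98.7 in siControl, 94.2, 118 and 136 in siYAP, 148, 141 and 154 in siTAZ and 98.7, 95.6 and 96.4 in siYAP+TAZ. Its siTAZ libraries were the highest and its siYAP+TAZ libraries overlapped siControl and siYAP, with a departure of -1.02 (SE 0.24, unadjusted p = 0.00048). PLSCR4, a phospholipid scramblase, had one of -1.21 (SE 0.30, unadjusted p = 0.0007), PCOLCE2, an enhancer of procollagen processing, one of -1.17 (SE 0.29, unadjusted p = 0.00074), and C6orf141 one of -1.13 (SE 0.37, unadjusted p = 0.0079). SNAI2, a repressor of epithelial genes that drives mesenchymal states, was at 930.1 to 1087 in siControl, 1139 to 1231 in siYAP, 1060.0 to 1215 in siTAZ and 832 to 1005 in siYAP+TAZ, a departure of -0.52 (SE 0.13, unadjusted p = 0.00095). COL5A1, a fibrillar collagen chain, was at 4229, 4445 and 5019.6 in siControl, 6149, 5968 and 7097 in siYAP, 6859.6, 13710.5 and 9395 in siTAZ and 8158, 8165 and 10138 in siYAP+TAZ, where siTAZ 24 stood far above the other siTAZ libraries, and the departure was -0.67 (SE 0.28, unadjusted p = 0.036), or -0.38 without siTAZ 24 (unadjusted p = 0.078). TIMP4, an inhibitor of matrix metalloproteinases, had a departure of -0.76 (SE 0.35, unadjusted p = 0.042).

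**Figure D3:**
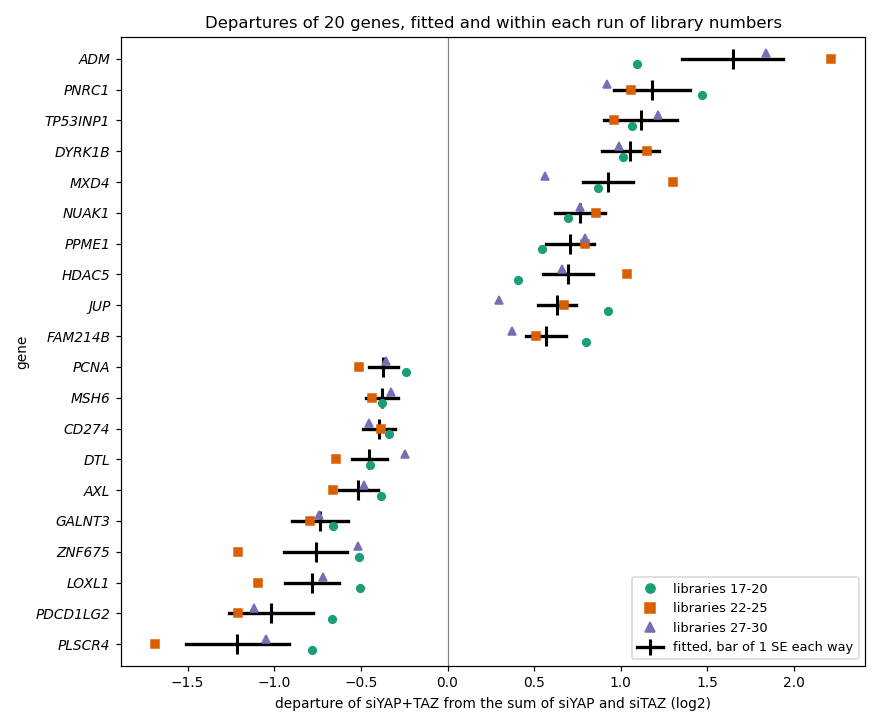
Departures on the log2 scale (x axis) of the 10 genes with a positive and the 10 with a negative departure of smallest p, with the fitted value and a bar of 1 SE each way in black and a symbol for the departure computed within each run of library numbers. Every symbol lies on the side of the fitted value, which the choice of genes required, and DYRK1B (0.99 to 1.15) spreads less than ADM (1.096 to 2.21).

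Gene lists were then read for how many members had a departure in each direction at an unadjusted p under 0.05, beside 3.11% positive and 2.74% negative over all genes, whose median departure was 0.00. The list of DNA replication and S phase genes had more negative members than any other list. Of its 35 members, 11 had a negative departure and 0 a positive one, 33 had a value below 0, and the median was -0.20. Their median changes were -0.15 in siYAP, -0.02 in siTAZ and -0.38 in siYAP+TAZ. Within runs 1, 2 and 3 the median departure was -0.30, -0.27 and -0.05, so run 3 was near 0. By role, the 11 were the clamp PCNA, the helicase subunits MCM4 (-0.22) and MCM5 (-0.24), GINS1 (-0.46) and GINS2 (-0.56), the loading and firing factors CDC6 (-0.32) and MCM10 (-0.34), the clamp loader subunit RFC4 (-0.27), the polymerase subunit POLE (-0.24), the flap nuclease FEN1 (-0.28) and the chromatin assembly subunit CHAF1A (-0.31). GINS1 was at 799, 776 and 825 in siControl, 801, 833 and 742 in siYAP, 914, 1032 and 870.2 in siTAZ and 659.9, 653 and 710.3 in siYAP+TAZ, with the 3 co-knockdown libraries below all others. CDC6, MCM10, FEN1, RFC4, MCM4 and POLE were slightly below siControl in both single knockdowns, whereas PCNA, GINS1, GINS2, MCM5 and CHAF1A were below it in siYAP and above it in siTAZ. Leaving out siYAP 23 and siTAZ 24 together, which held the most YAP1 and the least WWTR1 of their groups, left 8 negative members and a median of -0.20. Leaving out 1 library at a time gave 7 (without siControl 17) to 17 (without siYAP+TAZ 30) negative members and no positive one, and with Control as the reference there were 6. In RNA from whole cultures, fewer cells in S phase and less of these RNAs per cell cannot be told apart. Mitosis genes had 1 negative member of 32, AURKB at -0.30, and a median of -0.03, and among G1 cyclins and CDK inhibitors CDK2 (-0.23 (SE 0.10, unadjusted p = 0.039)) was the 1 member of 16 past the limit. No member of the latter list was negative without siControl 17, siYAP 18, siControl 22, siYAP 23, siTAZ 24 or siYAP+TAZ 25, and 2 were positive without siControl 27. The negative count of the mitosis genes was 2 without siYAP 18 and 0 with Control as the reference.

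The promoters of the genes that were more than additive and lower are shown for the 4 named ones that hold a match to TTTGGCGC or TTTCCCGC on either strand, short forms of the E2F recognition sequence, because matches to it were more frequent in this class than over all promoters. The windows run from 250 bases before to 50 after the start (RefSeq, GRCh38.p14), 5′ to 3′ on the strand of the gene, with the match in capitals. They lie at chr20:5126573-5126872 (minus strand) for PCNA, chr20:25407423-25407722 (plus) for GINS1, chr1:212035498-212035797 (plus) for DTL and chr2:47782895-47783194 (plus) for MSH6.
PCNA: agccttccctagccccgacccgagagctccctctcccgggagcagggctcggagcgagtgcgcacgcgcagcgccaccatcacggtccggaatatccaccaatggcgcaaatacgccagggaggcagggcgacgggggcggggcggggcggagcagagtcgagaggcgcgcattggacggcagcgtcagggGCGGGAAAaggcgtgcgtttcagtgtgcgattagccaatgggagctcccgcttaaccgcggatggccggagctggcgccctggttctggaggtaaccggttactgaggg
GINS1: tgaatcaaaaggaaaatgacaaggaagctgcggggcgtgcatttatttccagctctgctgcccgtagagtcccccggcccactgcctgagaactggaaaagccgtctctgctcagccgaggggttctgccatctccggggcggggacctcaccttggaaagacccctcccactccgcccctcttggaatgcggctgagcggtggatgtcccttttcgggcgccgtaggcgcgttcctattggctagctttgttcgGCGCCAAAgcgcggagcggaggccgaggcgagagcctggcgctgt
DTL: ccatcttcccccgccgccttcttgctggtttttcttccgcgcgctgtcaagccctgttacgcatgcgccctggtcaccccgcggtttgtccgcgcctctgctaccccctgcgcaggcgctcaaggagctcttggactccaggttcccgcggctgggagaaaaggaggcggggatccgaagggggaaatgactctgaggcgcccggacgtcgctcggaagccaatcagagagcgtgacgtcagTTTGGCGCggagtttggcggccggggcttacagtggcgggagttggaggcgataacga
MSH6: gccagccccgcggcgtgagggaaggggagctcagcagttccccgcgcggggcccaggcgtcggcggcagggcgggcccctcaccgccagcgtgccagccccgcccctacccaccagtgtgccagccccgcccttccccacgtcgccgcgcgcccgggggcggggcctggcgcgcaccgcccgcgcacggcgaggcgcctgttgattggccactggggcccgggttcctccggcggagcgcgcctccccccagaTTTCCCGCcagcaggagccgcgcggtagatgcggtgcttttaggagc
Of the 14 named genes in this class, 12 had a promoter in the table. Among all genes of the class at an unadjusted p under 0.05, 19 of 143 (13.3%) promoters held such a match, against 413 of 11856 (3.48%) of all genes tested. The share was 4 of 202 (1.98%) in the more than additive genes that were higher, 7 of 205 (3.41%) in the less than additive genes with a sum below 0 and 5 of 212 (2.36%) in those with a sum above 0. In the whole S phase list it was 17 of 30 (56.7%), with 5 of 9 (55.6%) among its negative members and 12 of 21 (57.1%) among the others, nearly equal shares. GGAATG, the TEAD recognition sequence, was in 1334 of 11856 (11.3%) of all promoters, 21 of 143 (14.7%) of the more than additive genes that were lower and 25 of 202 (12.4%) of those that were higher, and 20 of 205 (9.76%) and 19 of 212 (8.96%) of the less than additive genes with a sum below and above 0. For CACGTG, the E-box, the shares in the same order were 1157 of 11856 (9.76%), 20 of 143 (13.99%), 19 of 202 (9.41%), 27 of 205 (13.2%) and 25 of 212 (11.8%). For TGACTCA, the AP-1 site, they were 402 of 11856 (3.39%), 0 of 143 (0%), 8 of 202 (3.96%), 8 of 205 (3.90%) and 4 of 212 (1.89%). A match is a run of letters and not a measured site.

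Genes of the Hippo pathway were read next. Of 22 known YAP and TAZ targets, NUAK2 was positive (4 were without siTAZ 19) and AXL negative, and the median was 0.04 beside median changes of -0.40 in siYAP, -0.28 in siTAZ and -0.63 in siYAP+TAZ. CCN2, which encodes a matricellular growth factor, had a departure of 0.33 (SE 0.24, unadjusted p = 0.19), and ANKRD1, a muscle and stress protein, one of 0.98 (SE 0.50, unadjusted p = 0.077), which spread from 0.34 to 1.91 over the runs. TEAD1, a DNA-binding partner of both proteins, was at 6003 to 6535 in siControl, 4467 to 5209 in siYAP, 4303 to 5686 in siTAZ and 4919 to 5341 in siYAP+TAZ. Its log2 differences from siControl were -0.34 in siYAP, -0.34 in siTAZ and -0.29 in siYAP+TAZ. Its departure was 0.39 (SE 0.13, unadjusted p = 0.0061), and that of TEAD2 was 0.40 (SE 0.13, unadjusted p = 0.008). The other 5 TEAD and VGLL genes measured were below 0 without reaching the limit, and the median of the 7 was -0.13. Their negative count of 0 was 2 without siYAP 28 and with the run as a term. It was 1 without siTAZ 29, with scaling by library size, with either filter on low counts and in the fit of the 12 libraries alone. Of 26 kinases and scaffolds upstream of YAP and TAZ, TAOK1 alone reached it, at 0.24 (SE 0.10, unadjusted p = 0.034), and the median was 0.05. The positive count was 0 without siControl 17, siControl 22, siTAZ 24, siYAP+TAZ 25 or siTAZ 29 and with scaling by library size, 2 without siTAZ 19 and 3 without siControl 27.

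For the machinery of invadopodia, the actin-based protrusions that degrade matrix, 3 of 29 genes had a positive departure and none a negative one, with a median of 0.06. The count was 1 without siYAP 18, 1 without siTAZ 24 and 1 with Control as the reference. GSN, which encodes the actin-severing protein gelsolin, was at 1433, 1597 and 1753 in siControl, 1895, 2192 and 2582 in siYAP, 2219.9, 2598 and 2735 in siTAZ and 4373, 4536 and 5603 in siYAP+TAZ. All single knockdown libraries lay above siControl and all joint ones above these, with 3511 expected and a departure of 0.46 (SE 0.16, unadjusted p = 0.012). SH3PXD2A, which encodes the scaffold TKS5, had one of 0.33 (SE 0.14, unadjusted p = 0.027), and WASL, an activator of actin branching, one of 0.45 (SE 0.18, unadjusted p = 0.025). MMP14, the membrane protease of invadopodia, differed from siControl by 0.33 in siYAP, 0.62 in siTAZ and 0.82 in siYAP+TAZ on the log2 scale, and its departure was -0.12 (SE 0.14, unadjusted p = 0.39). Of 16 integrin chains ITGA10 was positive (3 were without siYAP 18 or with Control as the reference), and the median of 0.25 was 0.12 over the 14 chains with a mean of at least 50 counts. Of 37 matrix genes, COL6A1 was positive (0.32 (SE 0.14, unadjusted p = 0.042)) and LOXL1 and COL5A1 negative, with a median of 0.00. With Control as the reference, 6 were positive and 1 negative, and the median was 0.19, and in the fit of the 12 libraries alone 4 were positive and 1 negative. None was positive with DESeq2, with scaling by library size, with either filter on low counts, or without siYAP 18, siYAP 23, siTAZ 24, siYAP+TAZ 25, siControl 27 or siYAP+TAZ 30, whereas 2 were without siTAZ 29. Without siControl 17, siYAP+TAZ 20, siControl 22, siTAZ 24, siYAP+TAZ 25 or siYAP 28, 1 was negative. Of 27 contractility genes, CNN3 (-0.23 (SE 0.10, unadjusted p = 0.025)) and MYL9 (-0.41 (SE 0.17, unadjusted p = 0.027)) were negative and none positive, with a median of -0.02. The negative count was 0 without siControl 22 and 1 without siControl 17, siYAP 23, siTAZ 24 or siYAP+TAZ 30, and within the runs MYL9 was at 0.04, -0.91 and -0.28, not of one sign. Without siTAZ 24 the departure of MYL9 was -0.22 (unadjusted p = 0.099).

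Of 22 hypoxia genes, 20 had a departure above 0 and 4 were positive at p under 0.05, namely ADM, MXI1, NDRG1 and PFKFB3, with a median of 0.15, and 0.13, 0.46 and 0.14 within the runs. NDRG1, a differentiation gene, was 0.97 (SE 0.25, unadjusted p = 0.0016) and more than additive, with log2 differences of 0.34 in siYAP, 0.43 in siTAZ and 1.75 in siYAP+TAZ. The positive members thus combine ADM, which was less than additive, and genes such as MXI1 and NDRG1 that were higher in the joint knockdown. Leaving out 1 library gave 3 to 8 positive members (8 without siControl 27) and none negative. PFKFB3, a glycolytic regulator, was 0.27 (SE 0.12, unadjusted p = 0.041). Of 22 AP-1 and immediate early genes, 19 were above 0 and the median was 0.34 (0.32, 0.52 and 0.22 within the runs), but MAFF alone (0.48 (SE 0.17, unadjusted p = 0.01)) reached the limit. This count was 5 without siControl 27 and 5 without siYAP+TAZ 30. FOSL1, an AP-1 subunit, was at -0.34 (SE 0.17, unadjusted p = 0.06). Of 24 genes of the TGF-beta pathway, 22 were above 0, with a median of 0.18, and the receptor TGFBR1 (0.42 (SE 0.14, unadjusted p = 0.0089)) and the ligand BMP4 (0.67 (SE 0.23, unadjusted p = 0.013)) were positive, a count that was 4 without siTAZ 19 and 5 without siControl 27. Of 21 Notch pathway genes, 15 were above 0 and 6 below, 3 were positive and the median was 0.18. They were the glycosyltransferase LFNG (0.60 (SE 0.20, unadjusted p = 0.0074)), the receptor NOTCH3 (1.09 (SE 0.39, unadjusted p = 0.013)) and the target HEY1 (1.19 (SE 0.45, unadjusted p = 0.016)), the latter pair at means of 35.2 and 22.8 counts. The 18 replication-dependent histone genes had a median of 0.45, with 0.79, 0.46 and -0.04 within the runs and H1-2 positive (0.70 (SE 0.19, unadjusted p = 0.002)), in libraries made from polyadenylated RNA, which most histone transcripts lack. The positive count of 1 was 5 without siControl 27, 4 without siYAP+TAZ 30, 3 with Control as the reference, and 1 or 2 without any other single library.

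In each of the remaining lists at most 2 members were past the limit in a direction, and with 1 library left out these counts ranged from 0 to 4. The 24 ATF4 and amino acid stress genes had a median of -0.07, with ATF5 (0.32) and DDIT3 (0.45) positive and the serine synthesis enzymes PSAT1 (-0.34) and PHGDH (-0.45) negative, and in ATF5 and DDIT3 22.1% and 31.6% of the exon bases overlap genes on the other strand. In the unfolded protein response DNAJB9 (0.46) and DNAJC3 (0.25), both co-chaperones of the endoplasmic reticulum, were positive of 16, with a median of 0.03. That count was 0 without siControl 17, siControl 22, siTAZ 24 or siYAP 28 and with Control as the reference, 1 without siYAP 18, siYAP+TAZ 20, siYAP+TAZ 25 or siTAZ 29, and 4 without siControl 27. Among p53 targets, TP53INP1 and GDF15 were positive of 20, and the median was 0.05. IRF7, a factor that induces interferon, had a departure of 0.52 (SE 0.18, unadjusted p = 0.009), the one positive member of 31 interferon-stimulated genes and of 10 genes for sensing double-stranded RNA. Their medians were 0.06 and 0.08. Of 13 genes for loading and acting with small RNAs, TNRC6B was positive (0.31 (SE 0.14, unadjusted p = 0.037)), with a median of 0.06. Ribosomal protein genes were below 0 in 76 of 83, but by little, with a median of -0.10 and 2 negative members, RPL39L (-0.40) and RPS25 (-0.29). In ribosome biogenesis DKC1 (-0.21) was negative and NOP2 (1.02, at a mean of 16.6 counts) positive, with a median of -0.07, and in the respiratory chain NDUFB5 (-0.39) was negative of 40, with a median of -0.08. Of 33 lysosome genes, the autophagy receptor SQSTM1 (0.38 (SE 0.13, unadjusted p = 0.0088)) and the proton pump subunit ATP6V0D2 (1.62) were positive, and the median was 0.00. Of 10 genes for the epithelial-mesenchymal transition, ZEB1, a repressor of epithelial genes, was positive (0.22 (SE 0.10, unadjusted p = 0.033)) and SNAI2 negative, with a median of -0.01. The medians of lists with 1 member past the limit named above were -0.04 for the 15 BCL2 family genes (BMF), 0.18 for 22 cytokine and NF-kB genes (BIRC3), -0.05 for 17 sphingolipid genes (S1PR1) and -0.14 for 19 metalloproteinases and inhibitors (TIMP4). Of 24 cholesterol synthesis genes (median -0.05) and 13 mitochondrially encoded genes, 0 had an unadjusted p under 0.05 by edgeR. Among the other named genes, SQSTM1 (22.4%), CDK2 (16.8%), BMP4 (16.3%), TIMP4 (14.2%) and TEAD2 (10.7%) also have over 10% of their exon bases overlapped on the other strand. The mitochondrially encoded genes had median departures of -0.94, -0.78 and 1.24 within the runs, a spread wider than in any other list.

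**Figure D4:**
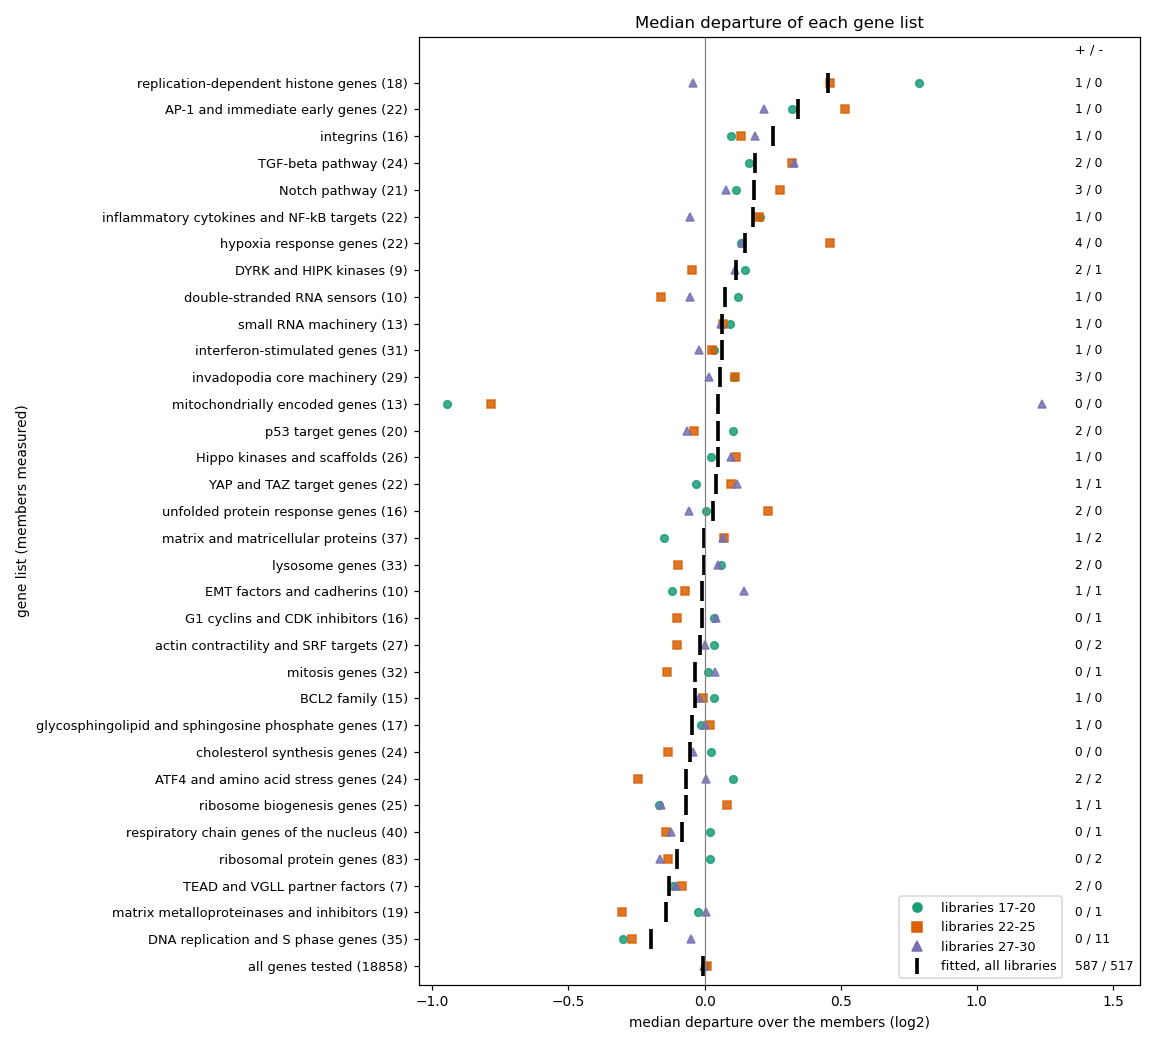
Median departure (x axis, log2) of each gene list, with the number of members measured in brackets, as a black bar for all libraries and a symbol for each run, and on the right the number of members with a positive and with a negative departure at an unadjusted p under 0.05. The S phase list, just above the row of all genes tested, has 0 positive and 11 negative members, and the mitochondrially encoded genes span from -0.94 to 1.24.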

How the data were processed

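RNA was sequenced from 15 MDA-MB-231 libraries in 5 groups of 3. The authors deposited 1 table with whole-number counts per gene, made per the labels and methods with the UTAP pipeline, cutadapt, STAR 2.4.2a, GRCh38 and GENCODE release 34, keeping genes with 5 or more reads in some library. The strand setting of the counting is not given in the sources used here. The deposited table also holds normalized and rlog values and the authors' own comparisons, which were not used.

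Groups came from the labels. The counts of all 15 libraries were fitted together, with a coefficient per group and TMM scaling, by the quasi-likelihood test of edgeR 4.0.16 (robust, two-sided, R 4.3.3), and p-values were adjusted by Benjamini and Hochberg over 18858 genes. Thresholds were an adjusted p of at most 0.05 and a log2 value of at least 1 in size. A sum of log2 changes is a product of folds, and additivity of counts was an alternative, as were limma 3.58.1, DESeq2 1.42.0, other scalings, filters and references, the run as a term, and each library left out. Departures within runs used log2 CPM with a prior count of 2. No library of a group was a copy of another (chi-square per degree of freedom at least 6.69). The fit was tested on simulated data.

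Genes were named by rule, starting with YAP1, WWTR1 and genes past both thresholds. The 10 of smallest p in each direction followed (mean of at least 50 counts, one sign in each run). From the fit with the run as a term came the 5 of smallest p in each direction past both thresholds. They too needed a mean of at least 50 counts, which left out KCNK2 (mean 12.8) and TFEC (mean 2.83). At most 2 in each direction were named per list. ANKRD1, ATP6V0D2, CCN2, DYRK1A, FOSL1, HEY1, MMP14, NDRG1, NOP2, NOTCH3, PFKFB3, SH3PXD2A and the S phase genes other than PCNA and GINS1 were named after their values were seen. The members and the 34 lists were chosen with earlier results of these data known.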

Additional observations from a re-analysis of the deposited data

Results flagged for a closer look

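For DYRK1B and MXD4 the log2 change with the TAZ pool differed between cells with and without the YAP pool, by the test of the difference itself. The departure was 1.05 on the log2 scale for DYRK1B and 0.925 for MXD4, each with an adjusted p of 0.041 by edgeR's quasi-likelihood test. Each was above its expected level in 3 of 3 siYAP+TAZ libraries, which are the same libraries that entered the test and add no separate support. The adjusted p was at most 0.05 in 9 of 25 alternatives for DYRK1B and in 7 of 25 for MXD4. Neither gene passed with scaling by library size, with either filter on low counts, without robust estimation, with Control as the reference, or without any one library other than siTAZ 19 and siControl 27. The siYAP+TAZ libraries also kept more WWTR1 RNA (62.1% to 71.0% of the siControl mean) than the siTAZ libraries (14.1% to 45.8%), so that unlike levels of WWTR1 RNA are compared. The part of this in either departure was not tested, and TAZ protein was not measured in these libraries.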

How the results depend on the processing

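The count of departures past both thresholds was 1. It was 6 with DESeq2, 27 with the run as a replicate block, and 0 with scaling by library size alone, with edgeR's filter by expression, with at least 10 reads in at least 3 libraries, without robust estimation, and with Control or the mean of siControl and Control as the reference. Leaving out 1 library gave 0 to 3. Without siYAP 23 and siTAZ 24 together, chosen after seeing the data, it was 0. By adjusted p alone (0.05 or below) the count was 2, and it was 21 with DESeq2, 1 with voom, 1 with the 12 libraries of the contrast alone, 122 with the replicate block, 15 on the scale of counts, and 0 with library size, both filters, no robust estimation and the Control reference. Leaving out 1 library gave 0 to 5, and without siYAP 23 and siTAZ 24 it was 0. In the settings with 0 genes by adjusted p, edgeR gave 430 to 652 positive and 346 to 640 negative genes at an unadjusted p under 0.05. The replicate block gave 1132 positive and 976 negative genes. The share of more than additive genes was 34.1% with Control as the reference and 45.3% at an unadjusted p under 0.01, against 39.3%. Over its alternatives DYRK1B had a departure of 0.90 to 1.13 and an adjusted p of 5.4e-06 to 0.25, and MXD4 one of 0.83 to 1.06 and 2.4e-05 to 0.33. Of the 70 genes named by rule, none had a departure that changed sign in these alternatives (the genes named after their values were seen were not included). All but YAP1 and WWTR1 were chosen by their p in the same libraries, which made a change of sign unlikely beforehand. List medians close to 0 did change sign, among them those of the sphingolipid and small RNA genes. With Control as the reference or a mean of at least 50, list medians moved by more than their spread between runs for the TEAD and VGLL genes (-0.08 with Control, -0.09 at a mean of at least 50), integrins (0.12), matrix genes (0.19), sphingolipid genes (0.01 and -0.09) and small RNA genes (-0.03). Leaving out libraries also moved others, over all alternatives to -0.06 and 0.04 for the BCL2 family, -0.02 and 0.13 for interferon-stimulated genes, 0.06 and 0.28 for Notch, 0.02 and 0.28 for cytokine genes, -0.09 and 0.10 for double-stranded RNA sensors and 0.11 and 0.29 for TGF-beta. With the block, 12 of 22 AP-1 genes, 7 of 24 TGF-beta genes, 5 of 37 matrix genes, 9 of 22 hypoxia genes and 6 of 18 histone genes were positive, and 16 of 35 S phase genes negative. The cause of these shifts was not tested. The labels give no pairing, so the run was used as an alternative only. Of 30 same-run pairs of libraries, 26 had deviations from the group means that correlated over 0.1 (range -0.061 to 0.680), and those of siTAZ 24 did not (-0.061 to 0.034). Without siTAZ 24 the lowest same-run value was 0.243, and pairs from different runs ranged from -0.644 to 0.488. Of 15 libraries, 10 correlated best with their own run.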
